A study of Rattus norvegicus with 18 samples.

Results

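Solute carriers are membrane proteins that move sugars, amino acids, ions, metals, vitamins and nucleotides across the cell membrane and the membranes of organelles. The genes described here have a symbol that begins with Slc and a number, and a mean normalized count of at least 100 in the bufalin expression table. The Slc8 sodium-calcium exchangers were left out, and so were Slc2a1, Slc5a3, Slc6a6, Slc7a11, Slc11a2, Slc16a3, Slc38a2 and Slc40a1. This gave 151 carrier genes of the 17455 genes listed. The mean count and the left-out names chose them, with earlier results of these data known, and no fold change entered the rule. The genes left out by name are not among the 151. Among these, Slc2a1 had a mean of 2717 over bufalin and control cells, against 1981 in control cells. For Slc6a6 these means were 3896 and 4096. By textbook transport mode, 23 of the 151 were classed as sodium-coupled and 115 as not sodium-coupled (called other carriers here). Classes were set by gene symbol, so single members can differ in mode. The other carriers also count the heavy chain Slc3a2 and the outer mitochondrial membrane protein Slc25a46. For 9 the coupling is not settled, and 4 bear an Slc symbol without being carriers: the scaffolds Slc9a3r1 and Slc9a3r2, the adaptor Slc4a1ap and the neighbouring gene Slc7a6os.

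The cells were wild-type H9c2, an established myoblast line of rat myocardium, either treated with bufalin, treated with periplocin or kept as controls. Each condition had 3 IP libraries, made from RNA fragments pulled down with an antibody to N6-methyladenosine (m6A), and 3 input libraries of the RNA before the pull-down, so the 18 samples form 6 groups of 3. The series asked whether the m6A mark is involved when these compounds harm heart cells. The series title calls periplocin piperlopicin. Neither doses nor exposure times appear in the labels, and no label tells whether the 3 samples of a group were grown as separate cultures, so p-values measure only the spread between these samples, which may be technical.

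Bufalin, a bufadienolide, and periplocin, a cardenolide that carries sugars, are cardiotonic steroids that block the sodium pump (Na/K-ATPase). Whether the pump was blocked in these rat cells, at doses not in the labels, was not measured here. The pump keeps sodium low inside the cell, and sodium-coupled carriers use that gradient to drive amino acids, phosphate, creatine and vitamins inward or protons outward. Other carriers work by exchange, with protons or down the gradient of the substrate itself. Heart muscle depends on carriers for fuel, for pH control and for the trade of nucleotides and phosphate between mitochondria and cytosol.

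The files analysed hold 1 value per gene or peak for each comparison with control and none per library, so levels are given as fitted means: the mean over both groups split by the fold change, in counts divided by size factors. They are not per length and therefore rank no gene above another. Library depth was not analysed here. Whether input or IP libraries gave the expression values is not stated, and they are read here as RNA levels. Intervals are of the Wald type at 95%, computed from the standard errors the authors gave. Both comparisons use the same control libraries. The control means worked out from the tables differed by a log2 offset of 0.04 to 0.05 in all 151 carrier genes. Muscle and mesenchymal markers fitted the label in part. Of 9 skeletal myoblast markers 5 had a mean of at least 100, with 2 at 0 (Myf5 and Pax7), and of 8 cardiac markers 3 did, with Actn2 and Ryr2 near 0. All 5 mesenchymal markers reached 100, and none of the 4 endothelial or 4 leukocyte markers reached 100. Of 4 epithelial markers 3 were at 0 in the bufalin table, and Krt8 had a control mean of 1057. In RNA from whole cultures, fewer cells of a type and less RNA per cell cannot be told apart.

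The line used a wide part of the carrier repertoire. Of 347 listed Slc genes, 85 were at 0 in the bufalin table, 102 lay above 0 and under 100, and 160 reached 100, of which 9 were left out by the names above. Among sodium-coupled carriers 23 of 98 listed genes were included (23.5%) and 36 were at 0. Among other carriers 115 of 228 were included (50.4%) and 46 were at 0. Among the genes at 0 in both tables were the noradrenaline and dopamine transporters Slc6a2 and Slc6a3, the choline transporter Slc5a7 and the sodium-proton exchanger Slc9a2. The lowest genes included were Slc25a42 (mean 107), Slc16a14 (108), Slc16a11 (114) and Slc25a26 (116). Just outside stood Slc26a6 (98.0), Slc2a10 (95.4), Slc4a11 (93.6) and Slc26a1 (90.6). In the periplocin table the mean of Slc16a14 was 92.2, and the other 150 carrier genes were above 100.

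With bufalin, RNA estimates of the carrier genes lay close to the control level. Fitted folds ran from 0.663 for Slc38a9 to 1.22 for Slc25a33, and 149 of the 151 estimates were within 1.25-fold of control. No carrier gene passed an adjusted p of 0.05 by the authors' DESeq2 Wald test with Benjamini-Hochberg adjustment, which called 0.301% of the genes it adjusted. Only 35 of the 151 had an adjusted p, all with means of at least 2259. Re-adjusted over the 12876 genes with a p-value, 0 of the 151 passed, beside 0.0932% of those genes. At an unadjusted p under 0.05 there were 12 carrier genes (7.95%), beside 5.88% of all genes with a mean of at least 100. Of the 12, 7 were above 0 and 5 below 0, beside 3.63% and 2.25% of all genes with such a p on each side. The median log2 change was -0.01, with 70 above and 81 below 0, beside 0.00 over the 9143 genes with a mean of at least 100.

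With periplocin the picture was alike in size. Folds ran from 0.671 for Slc38a9 to 1.28 for Slc9a5, and 146 estimates were within 1.25-fold and all 151 within 1.5-fold of control. All 151 had an adjusted p and 0 passed 0.05 by the authors' DESeq2 test, beside 0.538% of all genes adjusted. Re-adjusted over the 12906 genes with a p-value, 0 passed, beside 0.519%. At an unadjusted p under 0.05 there were 5 carrier genes (3.31%), beside 7.02% of all genes with a mean of at least 100. Of the 5, 1 was above 0 and 4 below 0, beside 4.45% and 2.57% of all genes on each side. The median was -0.01, with 69 above and 82 below 0, beside -0.00 over all genes. The plot of change against mean count shows that carrier genes of low count scattered more widely than those of high count, as all genes did.

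**Figure D1:**
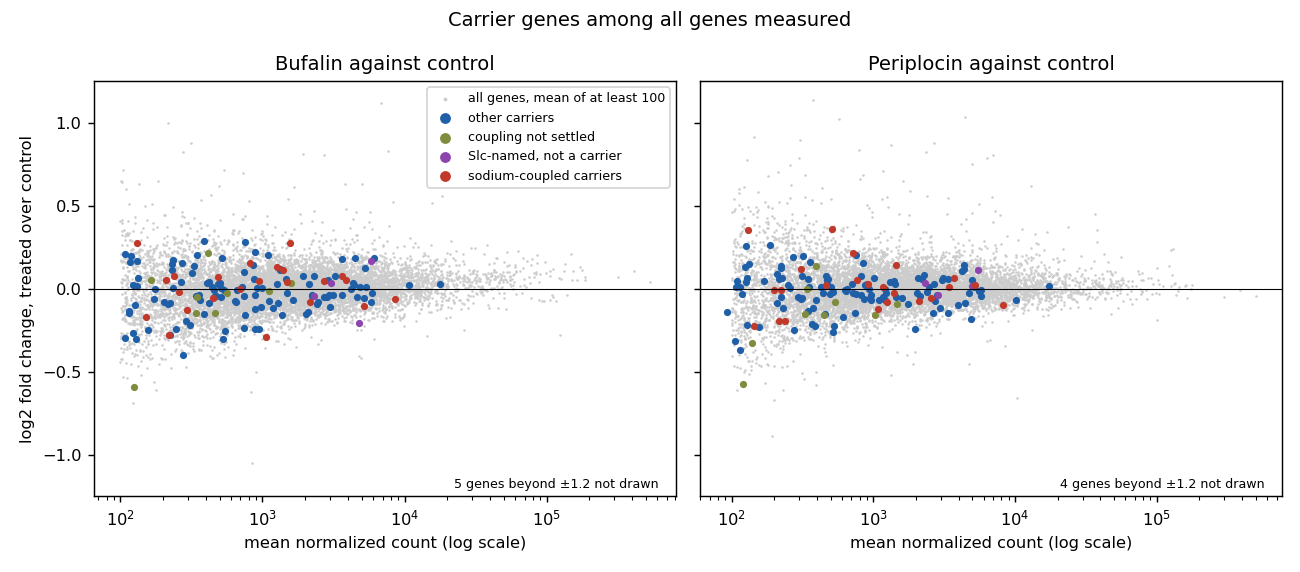
Log2 fold change of RNA (vertical axis) against mean normalized count (horizontal axis, log scale) for bufalin over control (left) and periplocin over control (right). Each point is a gene; grey points are all genes with a mean of at least 100 and coloured points are the 151 carrier genes by class, all of which lie between -0.59 and 0.36.

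The precision differed between genes. Standard errors of the carrier genes ran from 0.06 to 0.33 with bufalin (median 0.13) and from 0.04 to 0.33 with periplocin (median 0.13). Carrier genes had lower counts than all genes with a mean of at least 100. Their median mean was 740 against 1391 with bufalin and 724 against 1346 with periplocin. The part of count in the precision was not tested. The interval lay wholly within 1.5-fold of control for 125 of 151 with bufalin (82.8%, beside 90.1% of all genes) and for 134 with periplocin (88.7%, beside 91.0%). Within 1.25-fold lay 62 with bufalin and 81 with periplocin, so changes of that size could be bounded for some carriers only. Within 2-fold lay 150 in each comparison, the exception being Slc38a9. This gene, with a fitted mean of 99.2 in bufalin cells and 97.2 in periplocin cells, against 149.6 and 144.9 in the control cells of the 2 tables, encodes a lysosomal protein that senses arginine and lets amino acids out. The authors' deposited table put its log2 change at -0.59 ± 0.29 (SE) with bufalin, p = 0.0418, and -0.58 ± 0.26 with periplocin, p = 0.0255. Because the controls are shared, these are not separate pieces of evidence, and neither passed adjustment (0.978 re-adjusted over all genes with bufalin, 0.627 in the authors' deposited table with periplocin).

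Sodium-coupled carriers of amino acids and related substrates numbered 9. The value farthest from 0 relative to its error among all carrier genes with bufalin was that of Slc6a8, which takes up creatine for the energy buffer of muscle. Its fitted mean was 1709 in bufalin cells against 1411 in control cells, a fold of 1.21 (1.07 to 1.37), and 1510 in periplocin cells against 1367 in control cells, a fold of 1.10 (0.991 to 1.23). In the authors' deposited table its log2 change was 0.28 ± 0.09 (SE) with bufalin, p = 0.00231, and 0.14 ± 0.08 with periplocin, p = 0.0721. The bufalin p re-adjusted over all genes was 0.438, so the call threshold was not met. Slc1a5, which exchanges glutamine and other neutral amino acids, stood on the other side with fitted means of 954.8 in bufalin cells and 1167 in control cells. Its log2 change was -0.29 ± 0.12 with bufalin, p = 0.0148, and -0.12 ± 0.10 with periplocin, p = 0.203, in the authors' deposited table. The remaining 7 had unadjusted p of at least 0.05 in both comparisons: the glutamate transporter Slc1a3, the neutral amino acid carrier Slc1a4, the glycine transporter Slc6a9, and Slc38a1, Slc38a3, Slc38a4 and Slc38a7, which carry glutamine and other neutral amino acids. Slc38a3 had wide intervals, at 1.21-fold (0.871 to 1.67) with bufalin and 1.28-fold (0.915 to 1.78) with periplocin. The median log2 change of the 9 was 0.05 with bufalin (5 above and 4 below 0) and 0.02 with periplocin (5 above and 4 below 0).

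Sodium-coupled carriers of ions, protons and chloride also numbered 9. Slc9a5, a sodium-proton exchanger known mainly from brain, had the largest fold of any carrier gene with periplocin. Its fitted mean was 441.7 in bufalin cells against 459.5 in control cells, and 570.7 in periplocin cells against 445.2 in control cells. The fold was 0.961 (0.784 to 1.18) with bufalin and 1.28 (1.06 to 1.55) with periplocin. The authors' deposited table gave -0.06 ± 0.15 (SE, log2) with bufalin, p = 0.704, and 0.36 ± 0.14 with periplocin, p = 0.0104 and adjusted p = 0.446 by DESeq2. Slc12a2, which brings in sodium, potassium and chloride together and restores cell volume, had fitted means of 8415 in bufalin cells against 8779 in control cells, and 7935 in periplocin cells against 8505 in control cells. Slc12a2 had an unadjusted p of at least 0.05 in both comparisons. The bicarbonate carriers Slc4a4 and Slc4a7, the calcium extruder Slc24a3, the magnesium extruder Slc41a1 and the mainly intracellular exchangers Slc9a8 and Slc9a9 had intervals that held 1 in both comparisons. The median log2 change of the 9 was 0.05 with bufalin (5 above and 4 below 0) and 0.03 with periplocin (5 above and 4 below 0).

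The last 5 sodium-coupled carriers bring in nutrients. They are the phosphate carriers Slc20a1 and Slc20a2, the multivitamin carrier Slc5a6, the vitamin C carrier Slc23a2 and the carnitine carrier Slc22a5, which feeds fatty acid oxidation. None had an unadjusted p under 0.05, and their medians were 0.04 with bufalin (3 above and 2 below 0) and -0.03 with periplocin (2 above and 3 below 0). Slc20a1 was bounded well, at 1.05-fold (0.930 to 1.20) with bufalin and 1.01-fold (0.921 to 1.10) with periplocin. For Slc22a5 the interval was wider, at 0.986-fold (0.732 to 1.33) with bufalin and 0.872-fold (0.643 to 1.18) with periplocin.

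**Figure D2:**
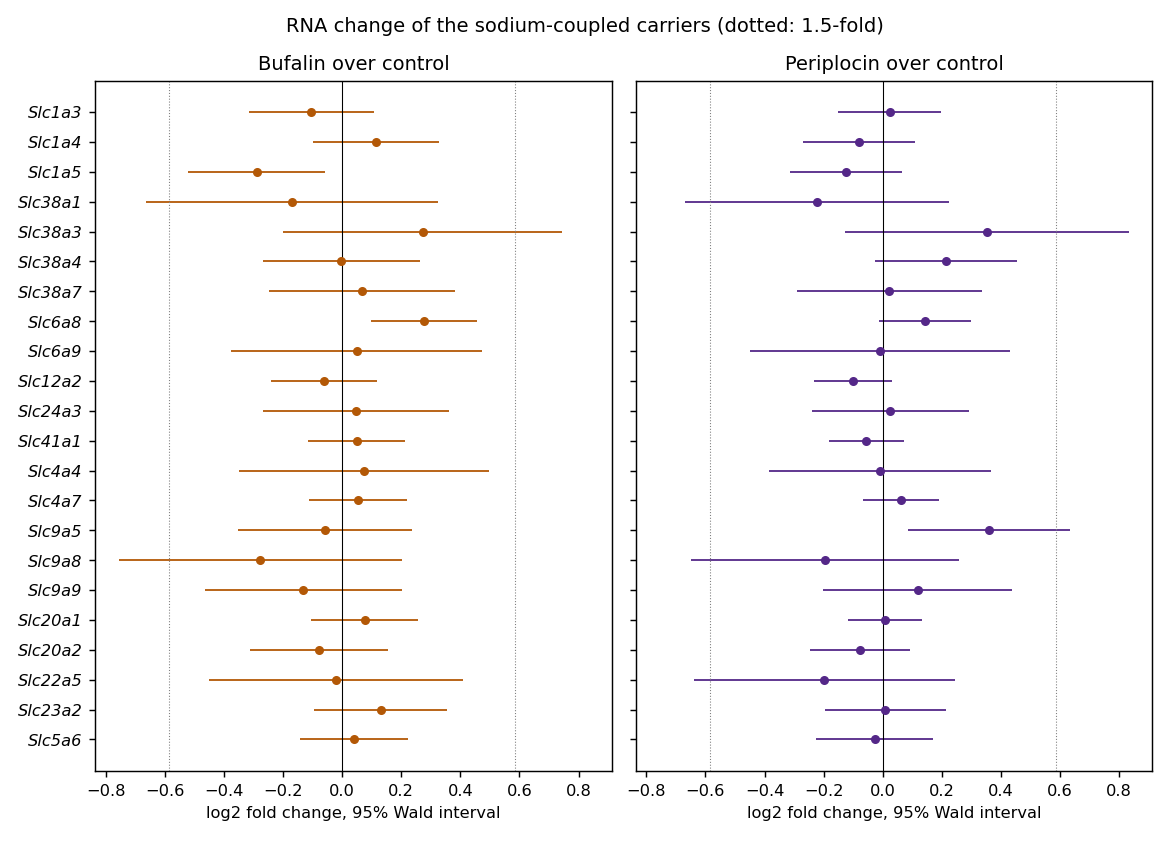
Log2 fold change with 95% Wald interval for 22 of the 23 sodium-coupled carriers, bufalin over control (left) and periplocin over control (right); dotted lines mark 1.5-fold. Intervals stay within 1.5-fold for 19 of the 22 with bufalin and 17 of the 22 with periplocin, and leave 0 aside for Slc6a8 and Slc1a5 with bufalin and for Slc9a5 with periplocin.

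Set beside each other, sodium-coupled and other carriers covered much the same range. With bufalin the 23 sodium-coupled genes had a median log2 change of 0.05, with 13 above and 10 below 0, quartiles at -0.07 and 0.08, and 2 genes at an unadjusted p under 0.05. The 115 other carriers had a median of -0.03, with 52 above and 63 below 0, quartiles at -0.09 and 0.06, and 8 such genes. Those counts were 8.70% of sodium-coupled and 6.96% of other carriers, beside 5.88% of all genes at a mean of 100 or more. Periplocin medians were 0.01 for sodium-coupled carriers (12 above and 11 below 0) and -0.01 for other carriers (53 above and 62 below 0). At an unadjusted p under 0.05 stood 1 sodium-coupled gene (4.35%) and 3 other carriers (2.61%), beside 7.02% of all genes of that level. No test was made of the difference between the classes, and no member of either was called. The sign of the sodium-coupled median with periplocin depended on the class list: with Slc38a6, Slc38a9, Slc41a2 and Slc41a3, whose coupling is not settled, counted in, it was -0.01, a grouping added after the values were seen.

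**Figure D3:**
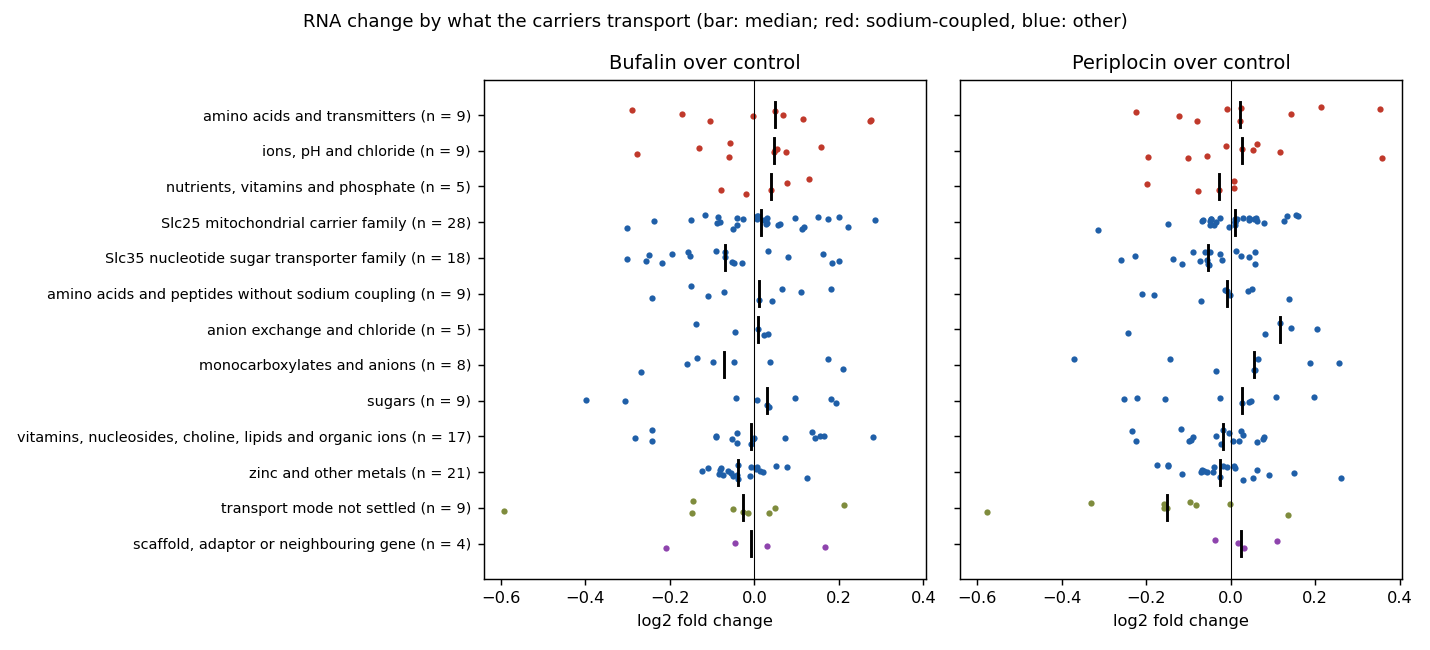
Log2 fold change of each of the 151 carrier genes (points) grouped by what they carry, with the group median as a bar, for bufalin over control (left) and periplocin over control (right). Red marks sodium-coupled and blue other carriers; group medians lie between -0.07 and 0.05 with bufalin and between -0.15 and 0.12 with periplocin.

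The Slc25 family, with 28 genes, holds mainly carriers of the inner mitochondrial membrane. It also counts Slc25a17, a carrier of peroxisomes, and Slc25a46, a protein of the outer mitochondrial membrane. Its median was 0.02 with bufalin (17 above and 11 below 0) and 0.01 with periplocin (16 above and 12 below 0), and 1 gene with bufalin and 0 with periplocin had an unadjusted p under 0.05. Slc25a4, which exchanges ADP for ATP in muscle and heart, had fitted means of 18101 in bufalin cells against 17724 in control cells, and 17344 in periplocin cells against 17173 in control cells. Its folds were bounded tightly, at 1.02 (0.937 to 1.11) with bufalin and 1.01 (0.953 to 1.07) with periplocin. Slc25a3, which brings phosphate into mitochondria for ATP synthesis, stood at 0.981-fold (0.905 to 1.06) with bufalin and 0.969-fold (0.906 to 1.04) with periplocin. Slc25a4 and Slc25a5 are close paralogs, and how reads shared by such genes were counted was not given in the sources used here, so their separate levels are uncertain. Slc25a25, a calcium-regulated carrier of ATP-magnesium and phosphate, was the Slc25 gene with the unadjusted p under 0.05. Its fitted mean was 958.4 in bufalin cells against 822.2 in control cells, and 886.8 in periplocin cells against 796.3 in control cells. The authors' deposited table gave 0.22 ± 0.10 (SE, log2) with bufalin, p = 0.0334, and 0.16 ± 0.12 with periplocin, p = 0.187. Slc25a33, which carries pyrimidine nucleotides, had the highest fold with bufalin, 1.22 (0.943 to 1.58), and 1.12 (0.870 to 1.43) with periplocin.

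Promoters of the carrier genes were searched for 3 motifs of stimulus and nutrient responses in the 250 bases before and 50 after the start of each gene, on both strands, in RefSeq sequence of build GRCr8, which holds 123 of the 151 genes. The cyclic AMP response element (CRE), spelled TGACGTCA, lay in 5 of the 123 (4.07%), beside 1.91% of all 27457 promoters. The AP-1 site, spelled TGANTCA, lay in 10 (8.13%, beside 7.33%), and the amino acid response element, spelled TGATGNAA, in 6 (4.88%, beside 3.82%); none of these motifs contains another. The 27457 promoters were taken without regard to count, while the carrier genes had a mean of at least 100, so the shares compare unlike sets. Slc18a2, Slc25a25, Slc25a33, Slc38a6 and Slc45a1 held the CRE. Their log2 changes had a median of 0.21 with bufalin (4 above and 1 below 0) and 0.14 with periplocin (3 above and 2 below 0), beside -0.03 and -0.01 for carrier genes without it. For the amino acid response element the medians were -0.12 with bufalin (1 above and 5 below 0) and 0.03 with periplocin (4 above and 2 below 0). For the AP-1 site they were -0.02 with bufalin (4 above and 6 below 0) and 0.02 with periplocin (6 above and 4 below 0). Of the 5 genes with the CRE, Slc25a25 with bufalin was the single value at an unadjusted p under 0.05. The CRE pattern is thus a description of 5 genes chosen by sequence, and no motif was tested for a link with RNA change. The 250 bases before the start are shown for the Slc25 genes with the largest bufalin values and for Slc45a1, a sugar carrier with the opposite sign, at 0.809-fold (0.558 to 1.17) with bufalin and 0.857-fold (0.585 to 1.26) with periplocin. The element stands in capitals, and each sequence reads 5′ to 3′ on the gene's strand, the minus strand in all 3: chr3:36116582-36116831 for Slc25a25, chr5:165502974-165503223 for Slc25a33 and chr5:166412184-166412433 for Slc45a1.
Slc25a25: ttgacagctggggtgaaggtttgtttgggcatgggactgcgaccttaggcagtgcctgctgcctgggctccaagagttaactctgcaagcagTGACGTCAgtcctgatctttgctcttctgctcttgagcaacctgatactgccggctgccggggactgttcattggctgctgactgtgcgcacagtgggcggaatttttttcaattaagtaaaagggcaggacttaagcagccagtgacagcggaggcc
Slc25a33: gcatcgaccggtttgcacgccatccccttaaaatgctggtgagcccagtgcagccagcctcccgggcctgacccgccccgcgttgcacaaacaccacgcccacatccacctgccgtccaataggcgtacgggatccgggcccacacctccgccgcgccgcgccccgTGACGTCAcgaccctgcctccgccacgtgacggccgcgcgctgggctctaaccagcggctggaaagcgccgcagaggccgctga
Slc45a1: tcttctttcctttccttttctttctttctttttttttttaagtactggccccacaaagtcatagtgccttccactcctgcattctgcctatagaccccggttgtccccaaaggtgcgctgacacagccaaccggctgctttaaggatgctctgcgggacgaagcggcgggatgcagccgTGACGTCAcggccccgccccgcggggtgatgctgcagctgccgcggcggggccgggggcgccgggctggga
Counted from the gene start, the element begins at position -158 in Slc25a25, -84 in Slc25a33 and -71 in Slc45a1. A match of letters is no evidence that a factor binds there in these cells.

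Amino acid carriers classed as not sodium-coupled numbered 9. They included the pair that forms the large neutral amino acid exchanger: Slc3a2, the heavy chain CD98, and Slc7a5, the light chain LAT1. Slc3a2 had a fitted mean of 6533 in bufalin cells against 5760 in control cells, and 5529 in periplocin cells against 5582 in control cells. In the authors' deposited table its log2 change was 0.18 ± 0.09 (SE) with bufalin, p = 0.0380, and -0.01 ± 0.07 with periplocin, p = 0.850. Slc7a5 had a fitted mean of 5398 in bufalin cells against 5356 in control cells, and 4578 in periplocin cells against 5190 in control cells. In the authors' deposited table its log2 change was 0.01 ± 0.10 with bufalin, p = 0.907, and -0.18 ± 0.09 with periplocin, p = 0.0405. The partner chains thus had their unadjusted p under 0.05 with different compounds, and neither passed adjustment. The cationic amino acid carrier Slc7a1, the exchanger chain Slc7a6, the lysosomal peptide and histidine carrier Slc15a4 and the other 4 of this group had an unadjusted p of at least 0.05 in both comparisons.

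Sugar carriers numbered 9. Slc2a8, a glucose transporter held in intracellular membranes, had the lowest value, with fitted means of 236.3 in bufalin cells against 311.5 in control cells, and 253.3 in periplocin cells against 301.8 in control cells. The authors' deposited table gave it -0.40 ± 0.18 (SE, log2) with bufalin, p = 0.0233, and -0.25 ± 0.18 with periplocin, p = 0.154. The insulin-responsive glucose transporter Slc2a4 stood at 1.07-fold (0.851 to 1.34) with bufalin and 1.15-fold (0.879 to 1.49) with periplocin. Slc2a3, a high-affinity glucose transporter, was at 1.13-fold (0.830 to 1.55) with bufalin and 1.08-fold (0.813 to 1.43) with periplocin. These intervals leave room for changes of over 1.25-fold in either glucose transporter. Medians of the group were 0.03 with bufalin (6 above and 3 below 0) and 0.03 with periplocin (5 above and 4 below 0).

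Lactate and other monocarboxylates leave or enter through the Slc16 family, which with the Slc26 anion carriers gave 8 genes. Slc16a1, the proton-coupled lactate carrier MCT1, had fitted means of 3860 in bufalin cells against 3418 in control cells, and 3443 in periplocin cells against 3312 in control cells. The authors' deposited table gave 0.18 ± 0.09 (SE, log2) with bufalin, p = 0.0427 and adjusted p = 0.503 by DESeq2, and 0.06 ± 0.06 with periplocin, p = 0.312. Slc16a7, which carries pyruvate and lactate, was at -0.16 ± 0.14 with bufalin and -0.03 ± 0.10 with periplocin, as the authors' deposited table has it. The other 6 were low in count, and the median standard error of the group was 0.24 with bufalin and 0.22 with periplocin, the largest of the role groups.

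The 5 carriers of chloride and anion exchange included the potassium-chloride exporters Slc12a4 and Slc12a7, which let salt out of swollen cells. With periplocin Slc12a4 was at 1.10-fold (0.997 to 1.22) and Slc12a7 at 1.08-fold (0.996 to 1.18), each with an interval that holds 1. The anion exchangers Slc4a2 and Slc4a3 had an unadjusted p of at least 0.05 in both comparisons.

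Zinc and other metal carriers numbered 21, with the Slc39 importers into the cytosol and the Slc30 exporters. Their changes with bufalin ran from -0.12 to 0.12 on the log2 scale, with medians of -0.04 with bufalin (7 above and 14 below 0) and -0.03 with periplocin (8 above and 13 below 0). Slc39a1, a zinc importer of the cell surface, had a fitted mean of 10802 in bufalin cells against 10658 in control cells, and 9832 in periplocin cells against 10326 in control cells. The importer Slc39a6 was at 1.09-fold (1.01 to 1.18) with bufalin, p = 0.0354 in the authors' deposited table, and 1.04-fold (0.966 to 1.11) with periplocin. Slc39a10, a related importer, was at 0.972-fold (0.881 to 1.07) with bufalin and 0.903-fold (0.827 to 0.986) with periplocin, p = 0.0227 and adjusted p = 0.602 by DESeq2 in the authors' deposited table. Slc30a4, a zinc exporter, stood at 0.946-fold (0.838 to 1.07) with bufalin and 0.994-fold (0.922 to 1.07) with periplocin. The group also holds the copper importer Slc31a1 and the heme carrier Slc48a1, both with an unadjusted p of at least 0.05 in each comparison.

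The Slc35 family, 18 genes, includes carriers of nucleotide sugars into the Golgi apparatus and endoplasmic reticulum for the building of glycans. Its members were grouped by symbol, and not all of them carry nucleotide sugars. Its median was -0.07 with bufalin (5 above and 13 below 0) and -0.05 with periplocin (5 above and 13 below 0). A single member had an unadjusted p under 0.05, Slc35b4, a carrier of UDP-xylose and UDP-N-acetylglucosamine, with fitted means of 1905 in bufalin cells against 2117 in control cells, and 2016 in periplocin cells against 2051 in control cells. In the authors' deposited table its log2 change was -0.15 ± 0.07 (SE) with bufalin, p = 0.0337, and -0.03 ± 0.07 with periplocin, p = 0.724. Slc35b2, which carries the sulfate donor of glycan sulfation, stood lowest in the family, at -0.30 ± 0.15 (log2) with bufalin, p = 0.0515, and -0.26 ± 0.13 with periplocin, p = 0.0527, both from the authors' deposited table. As the controls are shared, the like counts with both compounds are not separate evidence.

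Carriers of vitamins, nucleosides, choline, lipids and organic ions made up the last 17. Slc17a5, which exports sialic acid from lysosomes, had fitted means of 823.9 in bufalin cells against 678.3 in control cells, and 655.6 in periplocin cells against 657.2 in control cells. In the authors' deposited table its log2 change was 0.28 ± 0.12 (SE) with bufalin, p = 0.0222, and -0.00 ± 0.12 with periplocin, p = 0.977. Slc27a1, which promotes uptake of long-chain fatty acids, had fitted means of 861.5 in bufalin cells against 1019 in control cells, and 1031 in periplocin cells against 987.3 in control cells. The authors' deposited table gave -0.24 ± 0.11 with bufalin, p = 0.0308, and 0.06 ± 0.09 with periplocin, p = 0.488. The other 15, among them the nucleoside carriers Slc29a1, Slc29a2 and Slc29a3, the choline carriers Slc44a1 and Slc44a2 and the thiamine carrier Slc19a2, had an unadjusted p of at least 0.05 in both comparisons.

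Of the 9 genes whose transport mode is not settled, Slc38a9 alone had an unadjusted p under 0.05; the median of the 9 was -0.03 with bufalin (3 above and 6 below 0) and -0.15 with periplocin (1 above and 8 below 0). Of the 4 genes that are not carriers, Slc4a1ap, an adaptor first described as a partner of a kidney anion exchanger, had fitted means of 6115 in bufalin cells against 5442 in control cells, and 5690 in periplocin cells against 5273 in control cells. Its fold was 1.12 (1.02 to 1.24) with bufalin, p = 0.0166 in the authors' deposited table, and 1.08 (0.991 to 1.18) with periplocin, p = 0.0814 in the authors' deposited table.

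**Figure D4:**
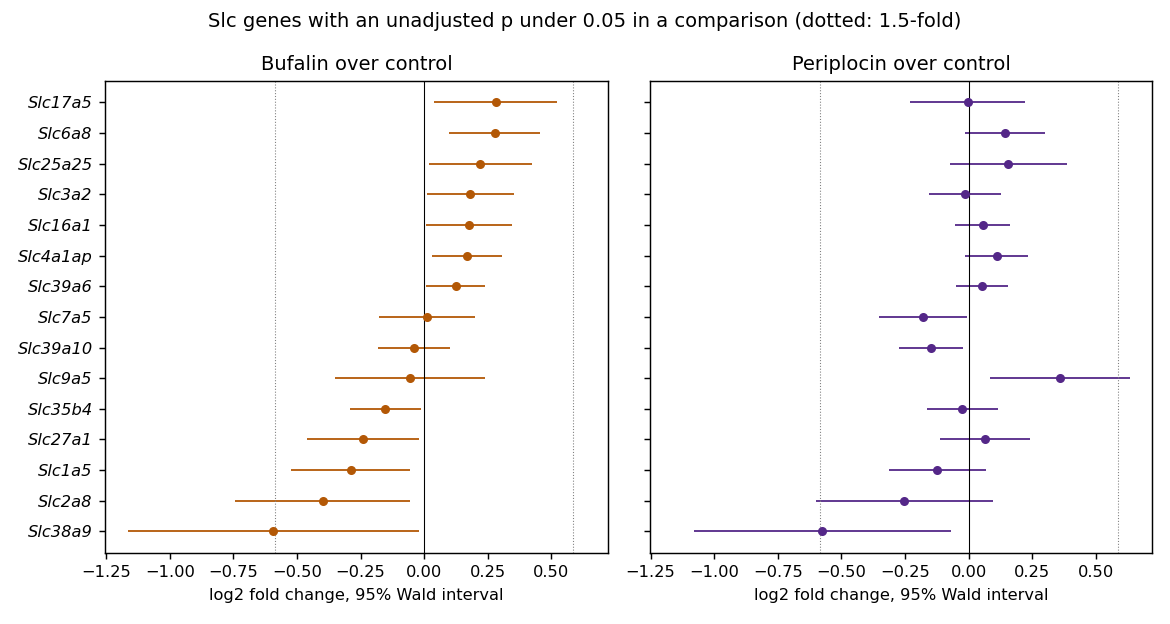
Log2 fold change with 95% Wald interval for 15 of the 16 carrier genes with an unadjusted p under 0.05 in at least 1 comparison, bufalin over control (left) and periplocin over control (right), ordered by the bufalin value; dotted lines mark 1.5-fold. None passed an adjusted p of 0.05, and Slc38a9 has the widest interval in both panels.

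The compounds were set against each other through the control they share, with bufalin minus periplocin as the direction and with doses and times unknown. The approximate Wald test of the difference called 0 of the 151 carrier genes, beside 0.396% of the 10602 genes tested, and the lowest adjusted p was 0.257. At an unadjusted p under 0.05 there were 8 (5.30%, beside 7.01% of all genes at a mean of 100 or more), 5 higher with bufalin and 3 higher with periplocin. Slc27a1 had the smallest p, at -0.30 ± 0.10 (SE, log2; interval -0.51 to -0.10; adjusted p = 0.257). Next was Slc9a5 at -0.42 ± 0.14 (-0.70 to -0.13; adjusted p = 0.319), followed by the zinc exporter Slc30a1 at 0.20 ± 0.08 (0.05 to 0.35; adjusted p = 0.479). The scaffold Slc9a3r1, which tethers membrane proteins to the cytoskeleton, stood at -0.23 ± 0.09 (adjusted p = 0.508), Slc3a2 at 0.20 ± 0.08 (adjusted p = 0.529) and Slc17a5 at 0.28 ± 0.12 (adjusted p = 0.551). The median difference was 0.02 over the carrier genes, 0.05 over sodium-coupled and 0.01 over other carriers, beside 0.00 over all genes. The interval lay within 1.5-fold for 132 of the 151. A p above the threshold does not show that bufadienolide and cardenolide acted alike on these genes. Slc6a8 had a difference of 0.13 (-0.03 to 0.30).

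Genes that work with carriers or carry solutes under other names were read beside them. Of 21 listed partners and regulators 13 were measured, with 0 called in either comparison by the authors' DESeq2 test and 0 after re-adjustment over all genes. At an unadjusted p under 0.05 there were 0 with bufalin and 4 with periplocin, beside 5.88% and 7.02% of all genes at a mean of 100 or more. The medians were 0.04 (9 above and 4 below 0) and -0.04 (4 above and 9 below 0). Sgk1, a kinase that raises the activity of several sodium-coupled carriers, was at 1.46-fold in periplocin cells over control cells (1.08 to 1.97; adjusted p = 0.491 by DESeq2 in the authors' deposited table). Txnip, which promotes removal of glucose transporters from the cell surface, was at 0.633-fold with periplocin (0.413 to 0.969, adjusted p = 0.699 by DESeq2 in the authors' deposited table). With bufalin Sgk1 was at 1.03-fold (0.837 to 1.26) and Txnip at 1.12-fold with a wide interval (0.550 to 2.27). The other 2 with periplocin were Nptn, a chaperone of monocarboxylate carriers, at 0.902-fold (0.830 to 0.980), and Arl6ip5, which regulates a glutamate transporter, at 0.872-fold (0.771 to 0.985). Of carriers under other names, 22 with bufalin and 21 with periplocin had a mean of at least 100, again with 0 called. At an unadjusted p under 0.05 stood the vesicle protein Sv2a with bufalin, at 0.892-fold (0.805 to 0.988). With periplocin stood the lysosomal lipid carrier Spns1, at 1.17-fold (1.01 to 1.34). The sphingosine phosphate exporter Spns2 also did with periplocin, at a log2 change of 0.54 ± 0.27 (SE, from the authors' deposited table). With bufalin Spns2 was at 0.60 ± 0.31, p = 0.0513 by the authors' DESeq2 Wald test. Its fitted control mean was 87.6 there.

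m6A is a methyl mark on adenosine in mRNA that reader proteins bind and that can alter splicing, translation and decay. Each compound came with a list of peaks, whose fold enrichment was read as IP over input, as the column name does not state it. The change of a peak was read as treated over control, which is not stated either. Both lists draw on the same control libraries, and coordinates are those of rn6. The bufalin list held 103 peaks on 66 of the 151 carrier genes (43.7%), beside 55.2% of all genes at a mean of 100 or more. The periplocin list held 89 peaks on 59 of them (39.1%), beside 52.7%. Genes with a peak had higher counts. With bufalin their median mean count was 1475, against 386.4 for carrier genes without a peak, and with periplocin it was 1475 against 392.9.

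Within ranges of count, the share with a peak was below that of all genes at the low end in both lists and, in the periplocin list, also between 1000 and 3000. These are counts without a test. For means of 100 to 300, 3 of 38 carrier genes had a bufalin peak (7.89%, beside 21.2% of all genes) and 3 of 36 a periplocin peak (8.33%, beside 19.3%). For means of 300 to 1000 the shares were 43.4% beside 44.8% with bufalin and 40.7% beside 41.6% with periplocin. For means of 1000 to 3000 they were 60.0% beside 62.8% and 44.4% beside 60.4%. At 3000 or more, 19 of 25 carrier genes had a bufalin peak (76.0%, beside 72.9%) and 18 of 24 a periplocin peak (75.0%, beside 71.5%). By class, 12 of the 23 sodium-coupled carriers had a bufalin peak (52.2%) and 13 a periplocin peak (56.5%), against 47 (40.9%) and 41 (35.7%) of the 115 other carriers. Sodium-coupled carriers also had the higher counts, with a median mean of 948.4 against 737.7 for other carriers in the bufalin table; the part of count in the difference was not tested.

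Peaks on carrier genes had a median enrichment of 1.93 in each list, beside 1.82 over all bufalin peaks and 1.81 over all periplocin peaks. Of the peaks on carrier genes, 26 of 103 with bufalin (25.2%, beside 44.3% of all peaks) and 24 of 89 with periplocin (27.0%, beside 44.4% of all peaks) were split into several blocks. The classes differed in this count: 9 of 20 peaks on sodium-coupled carriers with bufalin and 9 of 17 with periplocin were split, against 14 of 71 and 13 of 65 on other carriers. No test was made of these shares. Enrichments are the authors' values and describe peaks within a list. In the bufalin list the strongest lay on Slc39a10 (3.45), Slc33a1, an acetyl-CoA carrier of the endoplasmic reticulum (3.35), and Slc46a3, a lysosomal carrier (3.31). In the periplocin list they lay on Slc39a10 (3.68), the mitochondrial carrier Slc25a27 (3.60) and Slc35a4 of the nucleotide sugar family (3.33). The Slc39a10 peak spans 797 bases of the plus strand at chr9:60039454-60040250, the Slc25a27 peak 148 bases at chr9:19905796-19905943. Most peak-bearing genes had 1 or 2 peaks. Slc39a10 had 4 in each list, and Slc30a1 had 3 with bufalin and 4 with periplocin. The last, the zinc exporter of the cell surface, had them within chr13:110679911-110681289. Peaks of Slc7a6 and Slc7a6os lie on opposite strands of chromosome 19, a few kilobases apart. The libraries were stranded, and whether counting used the strand was not given in the sources used here, so the RNA levels of these neighbours are uncertain where they overlap.

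No peak on a carrier gene had an FDR of the change under 0.05, beside 0.0304% of all bufalin peaks and 0.0436% of all periplocin peaks by the authors' test, whose method was not given in the sources used here. At an unadjusted p under 0.05 there were 3 of 103 with bufalin and 3 of 89 with periplocin, beside 3.04% and 3.37% of all peaks. With bufalin these 3 were below 0: -0.40 on Slc12a2 at chr18:52974259-52975674 (p = 0.0245), -0.33 on Slc24a3 at chr3:139799863-139801543 (p = 0.0447) and -0.29 on Slc4a1ap at chr6:26222585-26230229 (p = 0.0166), all log2 changes from the authors' deposited table. With periplocin the single peak of the magnesium carrier Slc41a2, at chr7:26522413-26522761, stood at 0.56 (p = 0.00603, FDR 0.870), that of Slc4a3 at 0.65 (p = 0.0316) and a Slc4a1ap peak at -0.23 (p = 0.0417), log2 changes from the authors' deposited table. The same Slc41a2 interval stood at 0.12 with bufalin (p = 0.726) in the authors' deposited table. The 6 peaks were named after their values were seen. The median change was -0.03 with bufalin (47 above and 56 below 0) and 0.00 with periplocin (45 above and 44 below 0), beside -0.02 and -0.01 over all peaks. With bufalin, peaks on sodium-coupled carriers had a median of -0.07 (5 above and 15 below 0). Those on other carriers had 0.00 (36 above and 35 below 0). With periplocin the medians were -0.02 (7 above and 10 below 0) and 0.02 (35 above and 30 below 0). The class difference was not tested.

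**Figure D5:**
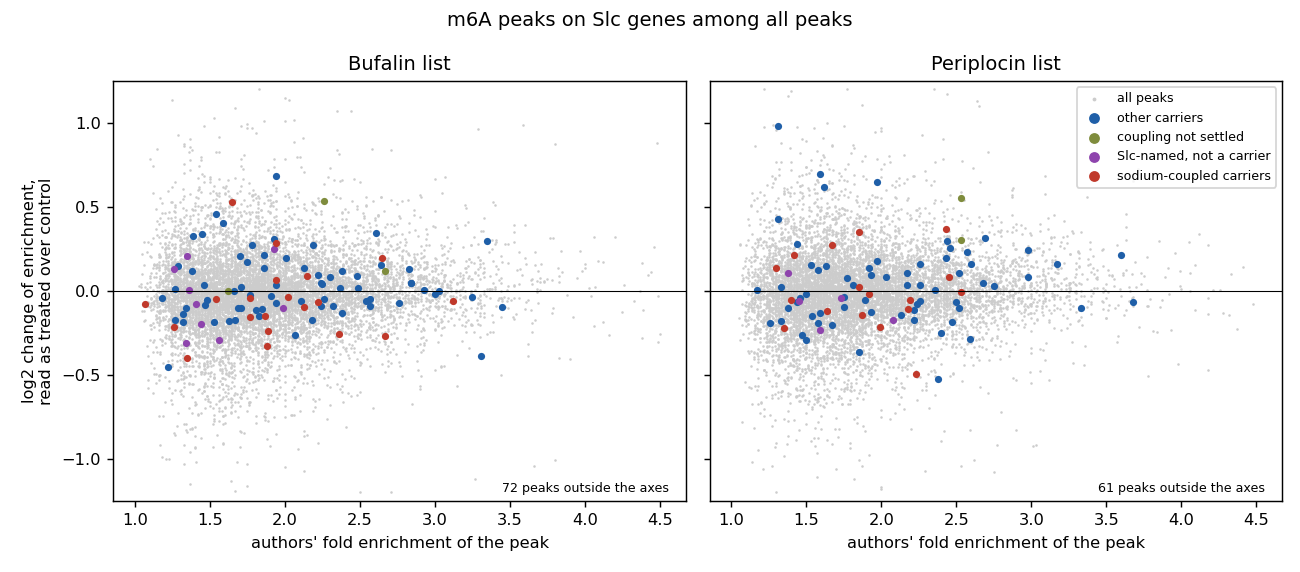
Log2 change of m6A enrichment (vertical axis, read as treated over control) against the authors' fold enrichment (horizontal axis) of each peak, bufalin list (left) and periplocin list (right). Grey points are all peaks inside the axes, coloured points the 103 and 89 peaks on carrier genes by class, which lie between -0.46 and 0.68 with bufalin and between -0.52 and 0.98 with periplocin.

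RNA changes of carrier genes with and without a peak were close. With bufalin the 66 genes with a peak had a median log2 RNA change of 0.00 (33 above and 33 below 0) and the 85 without a peak -0.03 (37 above and 48 below 0). With periplocin the 59 with a peak had 0.01 (30 above and 29 below 0) and the 92 without -0.02 (39 above and 53 below 0). Slc39a10, with 4 peaks in each list, was at an unadjusted p under 0.05 with periplocin, below 0, and its 4 peaks in that list had changes from -0.13 to 0.15 (log2) in the authors' deposited table. Whether RNA and peak changes are linked was not tested.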

How the data were processed

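Samples were grouped by the compound and the IP or input label. Per the labels' protocols, libraries were stranded and held molecular identifiers. The submitters' processing notes name HISAT2, StringTie and DESeq with build rn6; versions were not given in the sources used here. In the deposited expression tables the signal is the authors' mean of counts divided by size factors, the log2 values are fold changes with standard errors, and p-values are raw and adjusted, per the file headers. The deposited score was read as a Wald statistic. Its sign opposes the fold change throughout the periplocin table, so fold changes were used; control means matched between the tables when both were read as treated over control. Whether input or IP libraries gave these tables is not stated. In the deposited peak lists the fold enrichment is a ratio, the score equals the enrichment p-value, and log10 values hold p and FDR, per the file headers. The peak caller was not given in the sources used here.

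Carrier genes, classes, partner lists and motifs were chosen with earlier results of these data known; the 4 genes that are not carriers and the Slc66 genes were classed after the files were seen. A fit on counts per sample was planned if such counts existed; as the files hold comparisons, calls are the authors' adjusted p under 0.05 (DESeq2 Wald test, Benjamini-Hochberg). For bufalin against periplocin, each difference of log2 fold changes was divided by a standard error that joins counting noise and the spread rebuilt from the authors' errors, with the controls cancelling. This approximate Wald test covered 10602 genes (mean count 10 or more) with Benjamini-Hochberg adjustment. It was run on simulated counts whose errors were set from the same spread that drew them. That run therefore cannot check how well the spread is rebuilt from errors estimated on 3 samples per group. Of all genes it called 42, and 8 with an upper limit of the error. Named are carrier genes with an unadjusted p under 0.05, the 8 with the highest means, the 6 smallest p between compounds, those with 4 or more peaks and those beside the mean of 100; others stand in group descriptions; a few genes that this rule or a group names are not reported here. Alternatives covered thresholds, adjustment, minimum mean, centring, class lists and weak peaks. Peak sequences and exon positions were left out, as no rn6 genome was used; promoters are RefSeq's, build GRCr8. Software was matplotlib 3.10.9, scipy 1.17.1, pandas 2.3.3, numpy 2.4.6 and Python 3.11.15.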

Additional observations from a re-analysis of the deposited data

How the results depend on the processing

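No carrier gene was called in either comparison with p re-adjusted over all genes or at an adjusted p under 0.1, none differed between the compounds with an upper limit of the error or with only genes of a mean of at least 100 tested, and no carrier peak changed at an FDR under 0.01 or 0.1 or among peaks with an enrichment of at least 2. Counts at an unadjusted p under 0.05 ran from 11 to 13 with bufalin and from 4 to 7 with periplocin with minimum means of 50 and 200 and with the left-out Slc genes counted in. The share with a peak ran from 40.9% to 50.4% with bufalin and from 36.0% to 44.3% with periplocin under minimum means of 50 and 200. The sodium-coupled median stayed between 0.04 and 0.05 with bufalin and turned from 0.01 to -0.01 with periplocin in the class list added after the values were seen; that of other carriers ran from -0.04 to -0.01 and from -0.02 to -0.01. Leaving out each replicate was not run, because no values per library were analysed. No paired analysis was possible because the tables hold 1 value per comparison. For 26 carrier genes with bufalin the interval reached beyond 1.5-fold; the cause was not tested.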

Other observations

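A spread beyond counting noise was rebuilt from the authors' standard errors, taken as equal in both groups. It is a value of the fitted model and was not measured between libraries. Its median was 7.21% over the 60 carrier genes with a mean of at least 1000 in the bufalin table and 6.17% over the 60 in the periplocin table, beside 6.54% and 5.61% over all genes of that level. The glucose transporter Slc2a3 stood at 19.4% and 17.5%, above 99.0% and 99.1% of those genes, so that its fold was poorly bounded at a fitted mean of 4799 in bufalin cells against 4231 in control cells. Next with bufalin were the anion exchanger Slc4a2 (11.6%), the calcium-regulated mitochondrial carrier Slc25a24 (10.5%) and the cationic amino acid carrier Slc7a1 (9.99%). With periplocin the mitochondrial carriers Slc25a44 (10.5%) and Slc25a30 (8.82%) came next. These genes were named after their values were seen, and the libraries behind the spread were not analysed here.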
